A study of Homo sapiens with 12 samples.

Results

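Costimulatory receptors of the tumour necrosis factor (TNF) receptor superfamily and their ligands were followed in an engineered natural killer (NK) cell line. The genes were chosen by symbol from a list of 10, namely the receptors TNFRSF4 (OX40), TNFRSF8 (CD30), TNFRSF9 (4-1BB), TNFRSF18 (GITR), CD27 and TNFRSF14 (HVEM) and the ligands CD70, CD40LG (CD40 ligand), TNFSF4 (OX40 ligand) and TNFSF14 (LIGHT). Of the 17589 genes in the table, 9 were listed members, since TNFRSF18 had no row and was not analysed here. Of these 9, 8 were among the 13657 genes kept by a filter on low counts and tested, and CD40LG did not pass it.

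RNA was sequenced from unstimulated cells of YT, a human NK-like lymphoid line that lacks CD16a, the receptor for the constant part of IgG. All groups had been infected with a lentiviral vector driven by the EF1α promoter and sorted for eGFP, so that each group was a pool of transduced cells and carried the vector. CTRL cells received eGFP alone. The hnCD16 cells received a high-affinity, non-cleavable CD16a, FR1 cells received that ectodomain fused to 2B4, DAP10 and CD3ζ signalling parts, and FR2 cells received the same fusion receptor without 2B4. Each of the 4 groups had 3 libraries, 12 in all. The labels do not say whether the replicates were separate cultures, so the p-values measure only the spread between these libraries, which may be technical.

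TNF superfamily ligands are mostly trimeric membrane proteins that cluster their receptors on a neighbouring cell. The receptors have no enzyme activity of their own and recruit TRAF adaptors, through which they reach the canonical NF-κB pathway and, for several of them, the non-canonical pathway that processes the NFKB2 product. On T cells and NK cells they act after antigen or activating receptors and prolong proliferation, survival and cytokine release, while HVEM also binds inhibitory partners. In bulk RNA a change in the number of cells that express a gene and a change in RNA per cell cannot be told apart.

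The libraries did not carry one lineage profile. FCGR3A, the CD16a gene and the check of the constructs, had 0 counts in all CTRL libraries. It had 453 to 480 counts in the hnCD16 libraries, 559 to 567 with FR1 and 1012 to 1132 with FR2. Of the other 10 NK cell markers listed, 3 were at 1 CPM (counts scaled by library size) or more in every library of CTRL and of hnCD16 and 7 in FR1 and in FR2. Their summed level was 44.4 to 51.3 TPM (transcript counts scaled by length and library size) in CTRL, 40.9 to 43.5 with hnCD16, 7649 to 8026 with FR1 and 7343 to 7447 with FR2. Of 10 T cell markers, 8 were at that level in every library of CTRL and of hnCD16 against 3 in FR1 and in FR2, with summed levels of 1613 to 1851, 1796 to 1850, 78.6 to 80.6 and 92.0 to 100.1 TPM. The defining T cell gene CD3D counted 7757 to 9903 over the libraries of CTRL and hnCD16 against 0 to 3 over those of FR1 and FR2, and the defining NK cell gene NCR1 counted 0 to 5 against 436 to 535. Single markers went the other way, CD28 of the T cell list with 51 to 74 counts against 1572 to 2258 and NCR3 of the NK cell list with 101 to 109 against 0 to 17. The B cell list, 5 of 7 genes of which were in the table, summed to 15.4 to 24.9 TPM in CTRL and hnCD16 and 8.10 to 10.2 in the FR groups, with CD79A (98 to 175 counts against 2 to 7) and CD79B (72 to 105 against 0 to 2) lower and PAX5 (0 to 5 against 656 to 828) higher in the FR groups. Myeloid markers summed to 3.25 to 7.19 TPM over all libraries. The libraries labelled CTRL and hnCD16 thus went against the NK-like label on most of its markers. All 12 libraries are labelled YT, and whether they come from 1 line was not tested. In every comparison of an FR group with CTRL or hnCD16 the construct and this marker difference cannot be told apart.

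The members differed widely in level, on the TPM scale, which allows for gene length. In CTRL the order of mean ± SD (n = 3) ran from TNFRSF14 (7.37 ± 0.536 TPM) and TNFRSF4 (7.10 ± 0.289) through CD27 (4.24 ± 1.17), CD70 (3.003 ± 0.700), TNFSF4 (1.91 ± 0.455), TNFRSF9 (1.57 ± 0.0289) and TNFSF14 (1.31 ± 0.218) to CD40LG (0.250 ± 0.0755) and TNFRSF8 (0.163 ± 0.0208). Of neighbours in this order, the libraries overlapped for TNFRSF14 and TNFRSF4, for CD27 and CD70, for TNFRSF9 and TNFSF14 and for CD40LG and TNFRSF8. In hnCD16 TNFRSF4 (5.70 ± 0.366 TPM) and TNFRSF14 (5.52 ± 0.0557) overlapped at the top, CD70 (3.29 ± 0.172), CD27 (3.07 ± 0.366) and TNFSF4 (3.01 ± 0.0300) lay together, and TNFRSF9 (1.33 ± 0.163), TNFSF14 (1.07 ± 0.254), TNFRSF8 (0.153 ± 0.0874) and CD40LG (0.0900 ± 0.0794) followed. In FR1 TNFRSF8 stood first at 117 ± 6.35 TPM, ahead of TNFRSF14 (17.1 ± 1.31), CD27 (4.87 ± 1.14), CD70 (4.22 ± 0.255), TNFRSF9 (1.61 ± 0.0954), TNFSF14 (1.02 ± 0.299) and TNFSF4 (0.720 ± 0.0917), with TNFRSF4 at 0.0700 ± 0.0361. CD27 and CD70 again overlapped, as did TNFSF14 and TNFSF4. FR2 had the same order, with TNFRSF8 at 104 ± 4.02 TPM, TNFRSF14 at 19.9 ± 1.72, CD27 at 4.54 ± 0.257, CD70 at 3.87 ± 0.391, TNFRSF9 at 1.42 ± 0.112, TNFSF14 at 1.01 ± 0.375, TNFSF4 at 0.673 ± 0.141 and TNFRSF4 at 0.0367 ± 0.0635. TNFRSF8 thus stood last by its mean in CTRL and first in both FR groups, and TNFRSF4 stood among the highest in CTRL and hnCD16 and next to last in the FR groups, above CD40LG at 0.

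**Figure D1:**
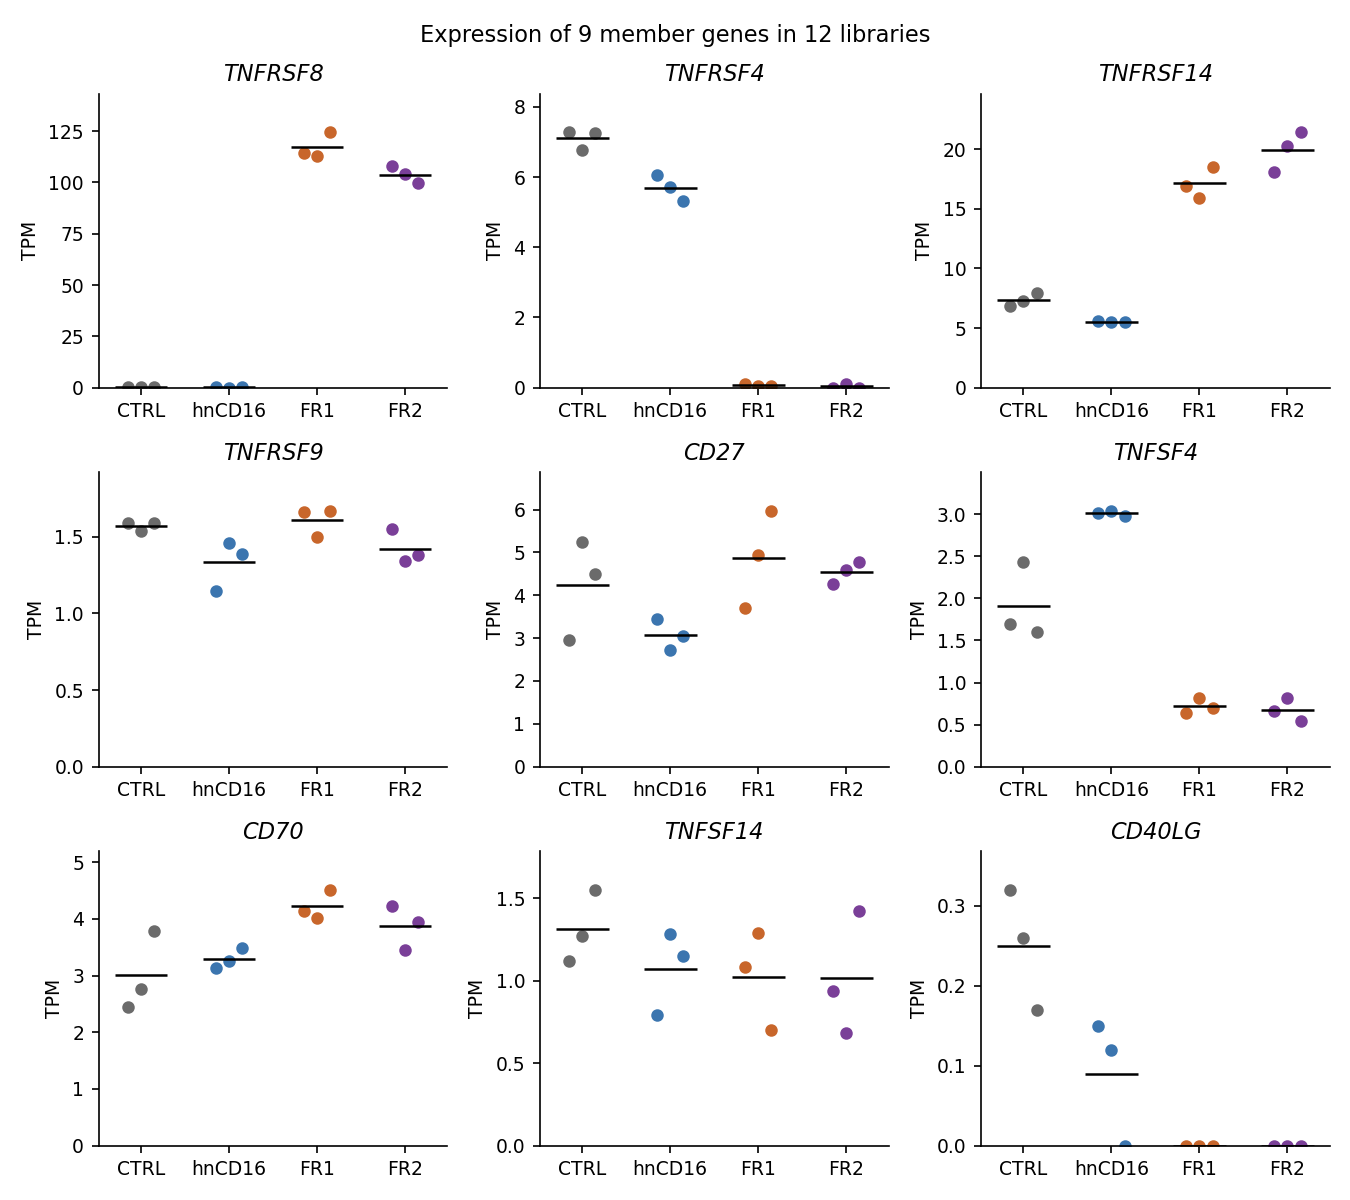
Expression of the 9 members in TPM (linear axes from 0, one scale per gene) in the 3 libraries of each of the 4 groups, with points for libraries and black lines for group means. TNFRSF8 and TNFRSF14 were higher in all FR1 and FR2 libraries than in all others, TNFRSF4 and TNFSF4 were lower, and TNFRSF9, CD70, CD27 and TNFSF14 stayed within 0.68 to 5.97 TPM.

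A gene was called changed where edgeR's quasi-likelihood test, fitted to all genes, gave a log2 fold change of 1 or more in size with a Benjamini-Hochberg adjusted p no higher than 0.05. The hnCD16 receptor carries the same ectodomain, with the native CD16a cytoplasmic tail in place of the fused signalling parts. Against hnCD16, 4 of the 8 tested members were called in FR1, TNFRSF8 and TNFRSF14 higher and TNFRSF4 and TNFSF4 lower. Among all genes 38.3% were called in this comparison, 18.7% higher and 19.6% lower in FR1, so a share of 4 in 8 is near the background. TNFRSF8 and TNFRSF4 passed the low-count filter only through the groups where they were high. In FR2 against hnCD16 the same 4 members were called in the same directions, with a background of 39.5% (19.6% higher and 19.8% lower). Against CTRL 3 members were called in FR1 and in FR2, TNFRSF8 and TNFRSF14 higher and TNFRSF4 lower. The background was 38.0% for FR1 (18.3% higher, 19.8% lower) and 38.2% for FR2 (18.7% higher, 19.6% lower). These comparisons share their FR or their control libraries. The median log2 fold change of the 8 members was 0.32 and 0.15 in FR1 and FR2 against hnCD16 and 0.39 and 0.21 against CTRL, beside medians of −0.01, −0.03, −0.03 and −0.04 over all tested genes.

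Between hnCD16 and CTRL 0 of the 8 members were called by edgeR, with 2 at an unadjusted p under 0.05, and DESeq2 and limma also called 0, with 1 and 3 at an unadjusted p under 0.05. The background of called genes in this comparison was 0.527%. FR1 and FR2 differ in design by the 2B4 part, and FCGR3A was at 32.4 CPM in FR1 and 61.3 CPM in FR2. In every comparison of FR1 with FR2 the 2B4 part and the construct's RNA level thus cannot be told apart. Between these groups 0 members were called by each of the 3 tools. At an unadjusted p under 0.05 were 2, 1 and 2 by edgeR, DESeq2 and limma. The background of called genes was 1.93%. For an unadjusted p alone, no share of all genes is given in either comparison. The median of the members was −0.12 in hnCD16 against CTRL and 0.16 in FR1 against FR2, beside −0.01 and −0.00 over all tested genes.

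**Figure D2:**
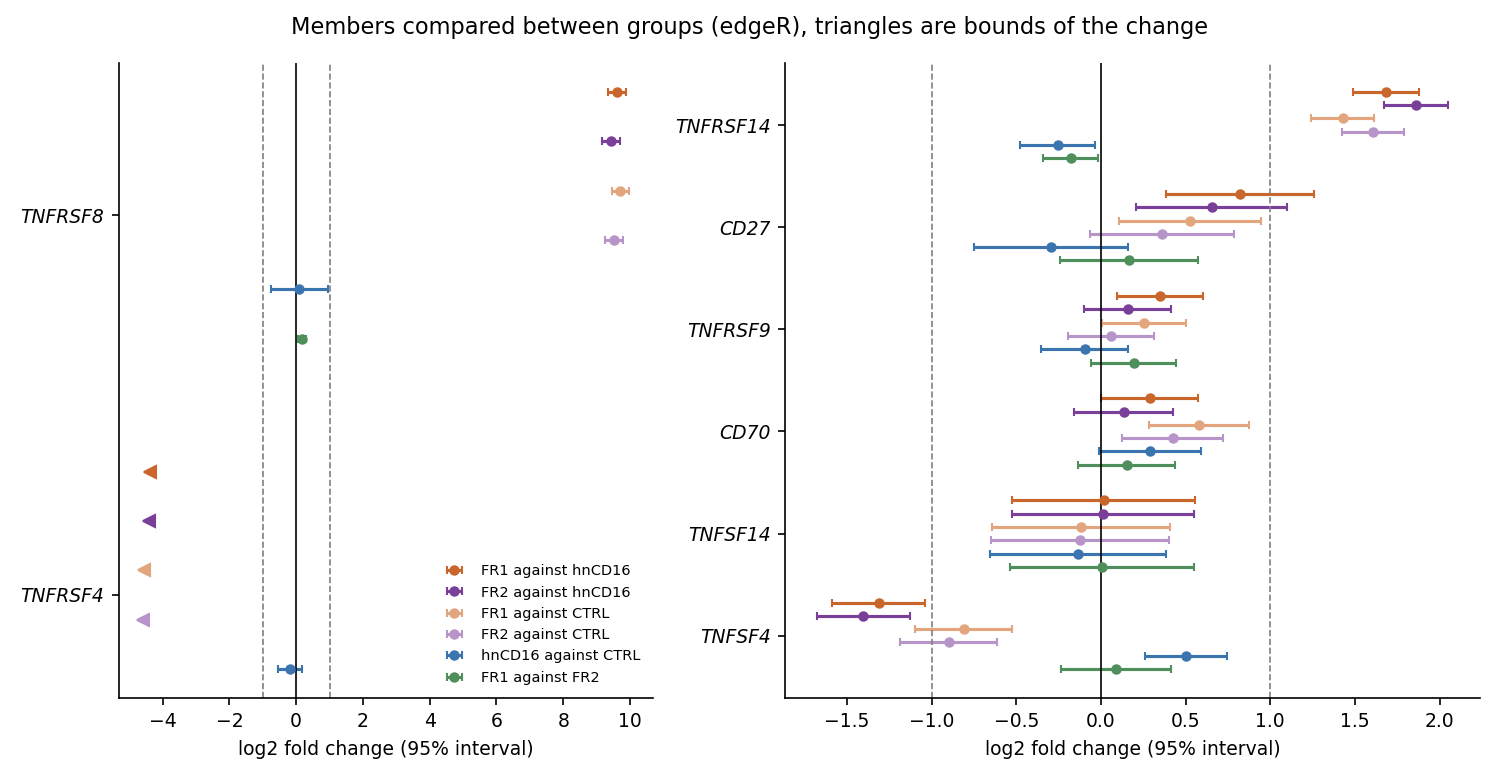
Log2 fold changes of the 8 tested members in 6 comparisons with their 95% intervals (edgeR), with dashed lines at −1 and 1. Triangles give the bound for TNFRSF4, whose FR libraries held 0 to 2 counts, and its comparison of FR1 with FR2 is not drawn. TNFRSF8 lies above 9 and TNFRSF14 between 1.43 and 1.86 in the comparisons of FR groups with CTRL or hnCD16, and both lie near 0 in the others.

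TNFRSF8 encodes CD30, a receptor of activated lymphocytes that recruits TRAF adaptors and is the marker of Hodgkin and anaplastic large cell lymphoma. It lies at chr1:12063303-12144207 on the plus strand (GENCODE v44, GRCh38). The CTRL libraries held 7, 5 and 6 counts and the hnCD16 libraries 10, 3 and 5. The FR1 libraries held 4404, 4325 and 4736 counts and the FR2 libraries 4168, 4070 and 3813. Every FR library lay above every CTRL and hnCD16 library, by more than the whole spread within any group.

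On the CPM scale CD30 rose from 0.324 ± 0.198 (SD, n = 3) in hnCD16 to 258 ± 10.7 in FR1 and 227 ± 8.02 in FR2. Relative to hnCD16 the log2 fold change was 9.61 in FR1 (95% interval 9.36 to 9.87, edgeR adjusted p = 2.625e-20) and 9.43 in FR2 (9.17 to 9.69, edgeR adjusted p = 3.257e-20). Against CTRL, at 0.302 ± 0.0538 CPM, it was 9.71 in FR1 (9.45 to 9.97) and 9.52 in FR2 (9.26 to 9.78). The size of these folds rests on control libraries with 3 to 10 counts. FR1 was higher than FR2 by 0.19 (0.06 to 0.31, edgeR adjusted p = 0.0188), without overlap of the libraries but far under the fold threshold, and hnCD16 differed from CTRL by 0.10 (−0.76 to 0.95, edgeR adjusted p = 0.901).

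The transcript table lists 4 TNFRSF8 transcripts, and their counts add up to the gene. The RefSeq transcript NM_001243 held 80.1% of the TNFRSF8 count in FR1 (75.3% to 85.4% by library) and 84.2% in FR2 (80.7% to 89.0%). In CTRL all of the 5 to 7 counts per library were assigned to NM_001281430, and in hnCD16 the counts were divided by library between NM_001281430 and XM_011542441. With so few counts these shares describe the assignment by RSEM and cannot rank transcripts.

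The ligand of CD30, TNFSF8, moved the other way. It had 62, 49 and 59 counts in CTRL and 66, 39 and 68 in hnCD16, and 0 in each of the 6 FR1 and FR2 libraries, where 0 allows up to 3 counts or 0.168 to 0.174 CPM. TNFSF8 was thus at least 18-fold lower in FR1 and 18.3-fold lower in FR2 than in hnCD16 (edgeR adjusted p = 5.034e-08 and 4.536e-08) and at least 16.5-fold and 16.8-fold lower than in CTRL. The libraries with the receptor held no count of the ligand, and those with the ligand held 3 to 10 counts of the receptor.

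TNFRSF14 encodes HVEM, a receptor on lymphocytes for the ligands TNFSF14 and LTA that also engages BTLA and CD160. It lies at chr1:2555639-2565382 on the plus strand and overlaps TNFRSF14-AS1 on the other strand, whose reads cannot be told apart from it if counting did not use strand. It had 131, 136 and 141 counts in CTRL, 106, 109 and 104 in hnCD16, 313, 300 and 346 in FR1 and 337, 377 and 389 in FR2. The FR libraries all lay above the other libraries, and the hnCD16 libraries lay below the CTRL libraries without overlap.

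HVEM RNA rose 3.21-fold in FR1 and 3.63-fold in FR2 over hnCD16, with log2 fold changes of 1.68 (1.49 to 1.88, edgeR adjusted p = 9.699e-12) and 1.86 (1.67 to 2.05, edgeR adjusted p = 1.710e-12). Over CTRL it rose 2.69-fold in FR1 (log2 fold change 1.43, edgeR adjusted p = 5.678e-11) and 3.04-fold in FR2 (1.60, edgeR adjusted p = 8.153e-12). Neither hnCD16 against CTRL (−0.26, −0.48 to −0.04, edgeR adjusted p = 0.0562) nor FR1 against FR2 (−0.18, −0.34 to −0.01, edgeR adjusted p = 0.0851) passed the test.

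The partners of HVEM went in different directions. TNFSF14 encodes LIGHT, which binds HVEM and the lymphotoxin β receptor, and lies at chr19:6661253-6670588. It had 51, 57 and 65 counts in CTRL, 39, 55 and 53 in hnCD16, 48, 59 and 32 in FR1 and 43, 32 and 66 in FR2, and all 4 groups overlapped. Its log2 fold change lay between −0.14 and 0.02 in the 6 comparisons (edgeR adjusted p at least 0.657), and the interval of FR1 against hnCD16 was −0.52 to 0.56. A difference under about that size was therefore not detectable for TNFSF14.

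CD160, an immunoglobulin-domain receptor for HVEM on NK and T cells, had 12, 12 and 19 counts in CTRL and 22, 7 and 12 in hnCD16. It had 2499, 2448 and 2398 counts in FR1 and 1839, 1843 and 1833 in FR2. It rose by 7.57 for FR1 (edgeR adjusted p = 7.586e-19) and 7.13 for FR2 (2.117e-18) over hnCD16 on the log2 scale, and lay 0.44 higher in FR1 than in FR2 (edgeR adjusted p = 1.054e-04), under the fold threshold. BTLA, the inhibitory partner of HVEM, held 0 to 4 counts in every library and was not tested.

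LTA, the soluble lymphotoxin α that can also bind HVEM, had 95, 76 and 88 counts in CTRL, 86, 66 and 76 in hnCD16, 15, 9 and 5 in FR1 and 3, 4 and 3 in FR2. It fell by 2.86 in FR1 and by 4.39 in FR2 against hnCD16 (edgeR adjusted p = 1.277e-08 and 6.335e-10), and it was the only gene of the 6 tested partners called between FR1 and FR2, higher in FR1 by 1.53 (edgeR adjusted p = 0.0220) at 3 to 15 counts. DESeq2 also called 1 of the 6 there, and limma on log2(TPM + 1) called 0. LTB, which joins LTA in the membrane lymphotoxin, had 136 to 206 counts in CTRL and hnCD16 and 0 or 1 in FR1 and FR2. LTB was at least 58.3-fold lower in FR1 and 59.4-fold lower in FR2 than in hnCD16. TNFRSF6B, the decoy receptor of LIGHT, was called in none of the 6 comparisons, at 12 to 63 counts, and LTBR, the lymphotoxin β receptor, held 0 to 3. Of the 6 tested partners of the members 5 were called in each FR comparison with hnCD16 or CTRL, TNFSF9 and CD160 higher and TNFSF8, LTA and LTB lower. The share over all genes was 38.0% to 39.5%. TNFSF9, TNFSF8, LTA and LTB passed the low-count filter only through the groups where they were high, and partners low in every library dropped out. The 5 of 6 therefore cannot be read as an excess over that share. Between hnCD16 and CTRL edgeR, DESeq2 and limma called 0, each with 0 at an unadjusted p under 0.05.

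TNFRSF4 encodes OX40, a receptor induced on activated T cells that supports their survival. It lies at chr1:1211326-1214153 on the minus strand, close to TNFRSF18, and overlaps no other annotated gene. Its counts were 85, 75 and 83 in CTRL, 71, 65 and 63 in hnCD16, 2, 1 and 1 in FR1 and 0, 2 and 0 in FR2. All FR libraries were at or under 3 counts, the level below which a library was treated as not above 0, and all other libraries held 63 or more.

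As a lower bound against 3 counts per library, OX40 RNA was at least 20.7-fold lower in FR1 and 21.1-fold lower in FR2 than in hnCD16 (edgeR adjusted p = 2.267e-10 and 1.187e-10). Against CTRL it was at least 23.6-fold lower in FR1 and 24.0-fold lower in FR2 (edgeR adjusted p = 8.887e-11 and 5.029e-11). Between hnCD16 and CTRL it differed by −0.19 (−0.54 to 0.17, edgeR adjusted p = 0.404), and the rounded counts of the groups did not overlap while their CPM values did. NM_003327 held the largest share of the TNFRSF4 count in CTRL (74.3%) and in hnCD16 (77.3%).

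The OX40 ligand TNFSF4, best known from antigen-presenting cells, lies at chr1:173183731-173207331 on the minus strand. It had 143, 148 and 129 counts in CTRL, 181, 195 and 180 in hnCD16, 64, 76 and 69 in FR1 and 65, 82 and 53 in FR2. The 3 levels were hnCD16 above CTRL above both FR groups, without overlap between hnCD16, CTRL and the FR libraries, and FR1 and FR2 overlapped.

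TNFSF4 fell by 1.31 in FR1 (−1.59 to −1.04, edgeR adjusted p = 4.191e-08) and by 1.40 in FR2 (−1.68 to −1.13, edgeR adjusted p = 1.824e-08) against hnCD16. Against CTRL the log2 fold change was −0.81 for FR1 (edgeR adjusted p = 2.822e-05) and −0.90 for FR2 (9.358e-06), past the p threshold and short of the fold threshold. These calls against CTRL depended on the scale, since limma on log2(TPM + 0.1) gave −1.27 and −1.37 and scaling by library size alone gave −1.003 and −1.03, and leaving out FR2 replicate 2 gave −1.08 in FR2. Between hnCD16 and CTRL TNFSF4 was higher by 0.50 (0.26 to 0.75, edgeR adjusted p = 0.00221), the one member past the p threshold in that comparison.

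The transcripts of TNFSF4 differed between the groups. XM_017002229 held the largest share of the TNFSF4 count in each group, at 80.3% for CTRL, 64.3% for hnCD16, 98.4% for FR1 and 99.4% for FR2. The rest was mostly NM_001297562, with 14.1, 43.7 and 0.00 expected counts in CTRL, 65.7, 58.4 and 57.5 in hnCD16 and 0 in all 6 FR1 and FR2 libraries. On that transcript the hnCD16 libraries stood above all others, and the CTRL libraries varied from 0 to nearly the hnCD16 level. Transcript shares were described and not tested.

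TNFRSF9 encodes 4-1BB, a receptor induced on activated T and NK cells whose signalling part is used in chimeric antigen receptors. It lies at chr1:7915871-7943165 on the minus strand. Its counts were 97, 91 and 91 in CTRL, 72, 89 and 83 in hnCD16, 101, 90 and 100 in FR1 and 94, 82 and 83 in FR2. TNFRSF9 thus stayed between 72 and 101 counts in all 12 libraries. FR1 was higher than hnCD16 by 0.35 (0.10 to 0.61, edgeR adjusted p = 0.0132), under the fold threshold, and the intervals of the other 5 comparisons lay between −0.35 and 0.50.

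Its ligand TNFSF9 was at 1, 5 and 2 counts in CTRL, 3, 4 and 1 in hnCD16, 65, 60 and 77 in FR1 and 113, 114 and 103 in FR2. TNFSF9 rose by 4.69 in FR1 and by 5.37 in FR2 over hnCD16 (edgeR adjusted p = 2.539e-10 and 9.538e-12), from control libraries of 1 to 5 counts. FR2 exceeded FR1 without overlap, the log2 fold change of FR1 against FR2 being −0.68 (edgeR adjusted p = 0.00307), under the fold threshold. Of the 4-1BB pair, the ligand was called in both FR groups and the receptor in neither.

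CD27, a receptor of naive and memory T cells and of NK cell subsets, lies at chr12:6444955-6451718 and overlaps CD27-AS1 and TAPBPL, which makes its counts uncertain. They were 38, 66 and 59 in CTRL, 49, 36 and 39 in hnCD16, 53, 72 and 80 in FR1 and 57, 63 and 66 in FR2. The FR libraries lay above the hnCD16 libraries and overlapped the CTRL libraries. CD27 was higher than in hnCD16 by 0.82 in FR1 (0.38 to 1.26, edgeR adjusted p = 0.00157) and 0.65 in FR2 (0.21 to 1.10, edgeR adjusted p = 0.00884). Against CTRL the values were 0.53 (edgeR adjusted p = 0.0216) and 0.36 (edgeR adjusted p = 0.109), and none reached the fold threshold.

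CD70, the ligand of CD27 that appears on activated lymphocytes and on many lymphomas, lies at chr19:6583183-6604103. It had 61, 67 and 89 counts in CTRL, 81, 82 and 85 in hnCD16, 96, 96 and 91 in FR1 and 94, 76 and 89 in FR2. Over CTRL it was higher by 0.58 in FR1 (0.28 to 0.87, edgeR adjusted p = 0.00103) and 0.43 in FR2 (0.13 to 0.72, edgeR adjusted p = 0.0107), and over hnCD16 by 0.29 (edgeR adjusted p = 0.0629) and 0.13 (edgeR adjusted p = 0.384). RNA of CD27 and of CD70 was thus present in all 12 libraries at 2.45 to 5.97 TPM, summed over transcripts, and neither was called in any comparison. By RSEM's assignment NM_001330332 held 100% of the CD70 count in CTRL and in hnCD16, 94.5% in FR1 and 93.7% in FR2. The other listed CD70 transcript held no count in CTRL or hnCD16.

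CD40LG, the ligand through which helper T cells activate B cells and antigen-presenting cells, lies at chrX:136648158-136660390. It had 6, 5 and 3 counts in CTRL, 3, 2 and 0 in hnCD16 and 0 in all 6 FR1 and FR2 libraries. With the CTRL mean set against 3 counts per library, it was 1.36-fold lower in FR1 and 1.39-fold lower in FR2, with no test. Since CTRL replicate 3 was itself at 3 counts, CD40LG has no firm lower bound. Its receptor CD40 held 0 to 3 counts in every library. TNFSF18, the ligand of TNFRSF18, held 0 to 2.

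**Figure D3:**
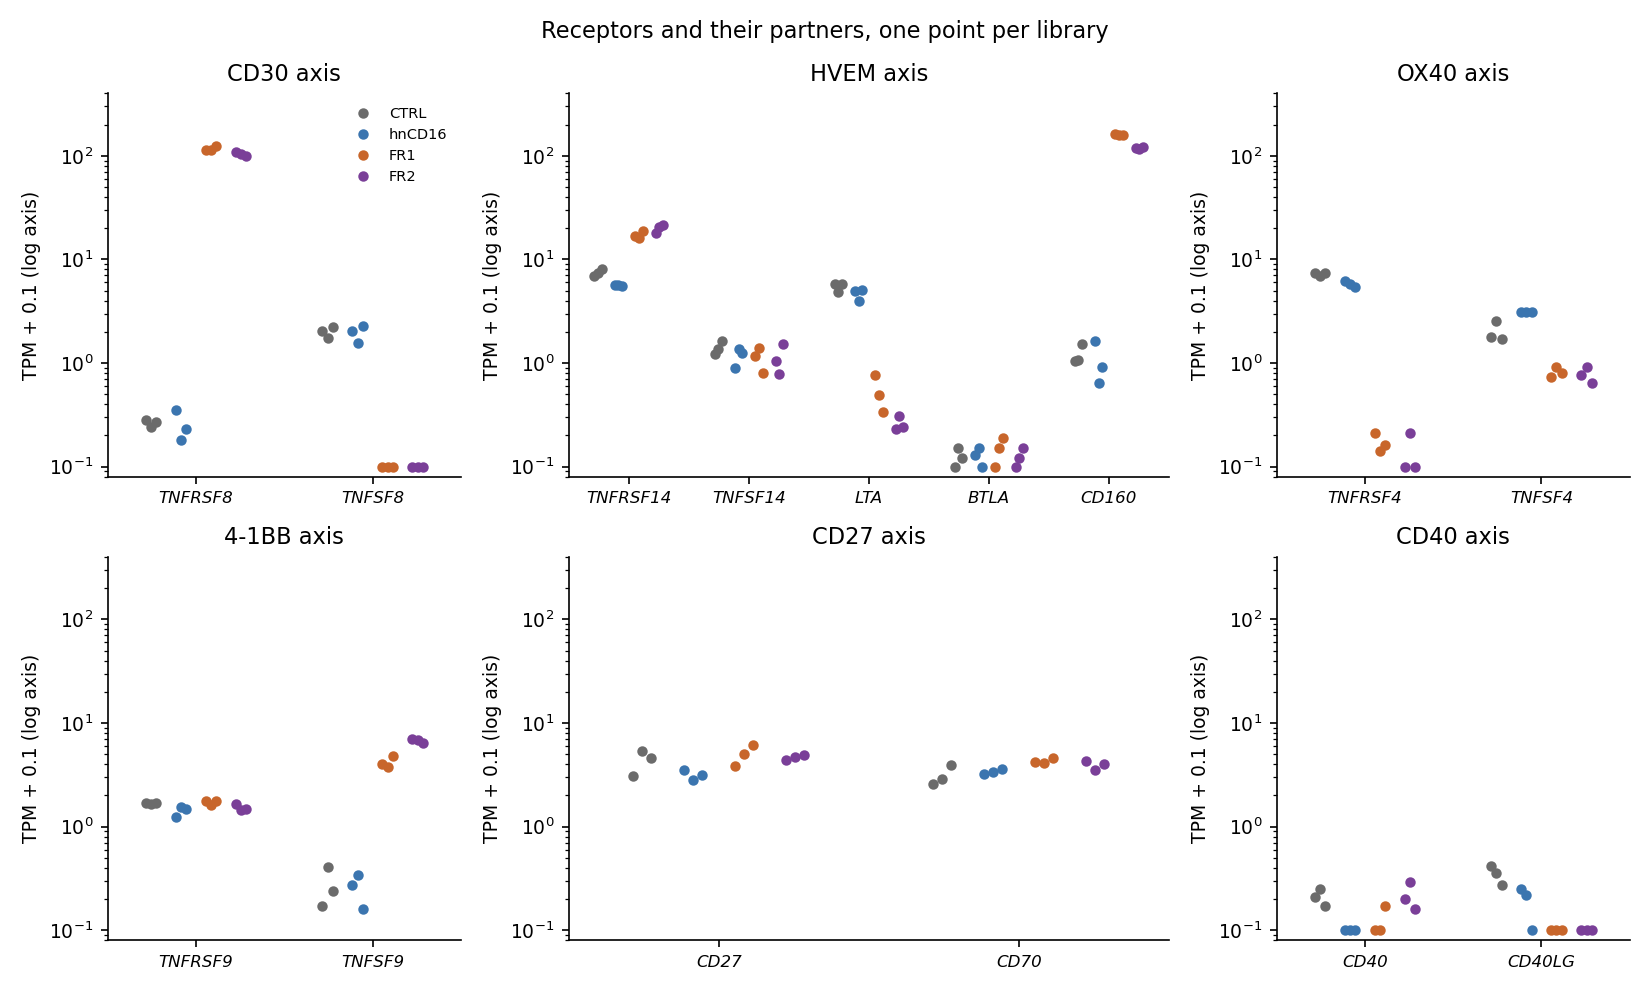
Receptors and their partners by library, as TPM + 0.1 on a log axis, in 6 receptor axes with the groups coloured. TNFRSF8 and CD160 lie at 99.8 TPM or more and TNFSF8 at 0 in the FR1 and FR2 libraries, TNFRSF4 lies at 0.11 TPM or less there, and CD27 and CD70 lie together in all groups.

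The 250 bases before the RefSeq gene start were read for the members that were in the promoter table (7 of 10, GRCh38.p14). For TNFRSF14, TNFRSF9 and TNFSF4 this start differs from the GENCODE start, and the windows lie inside the gene spans given above. Positions are counted from the RefSeq start. They are shown for TNFRSF8 and TNFRSF14, which rose in both FR groups, for TNFRSF9, which was called in neither, and for TNFSF4, which fell against hnCD16. Capitals mark matches on either strand to the NF-κB form GGGNNNNNCC, the AP-1 form TGANTCA and the GC box GGGCGG.
TNFRSF8, chr1:12063053-12063302, plus strand: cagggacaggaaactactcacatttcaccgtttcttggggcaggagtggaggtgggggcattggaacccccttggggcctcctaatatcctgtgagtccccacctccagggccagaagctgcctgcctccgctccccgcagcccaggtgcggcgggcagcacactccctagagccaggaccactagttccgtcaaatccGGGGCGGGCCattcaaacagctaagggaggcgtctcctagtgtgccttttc
TNFRSF14, chr1:2556121-2556370, plus strand: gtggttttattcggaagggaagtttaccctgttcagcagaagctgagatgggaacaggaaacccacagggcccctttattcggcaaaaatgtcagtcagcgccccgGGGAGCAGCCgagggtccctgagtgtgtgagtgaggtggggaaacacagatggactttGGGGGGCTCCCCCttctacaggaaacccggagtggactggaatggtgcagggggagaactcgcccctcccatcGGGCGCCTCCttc
TNFRSF9, chr1:7940840-7941089, minus strand: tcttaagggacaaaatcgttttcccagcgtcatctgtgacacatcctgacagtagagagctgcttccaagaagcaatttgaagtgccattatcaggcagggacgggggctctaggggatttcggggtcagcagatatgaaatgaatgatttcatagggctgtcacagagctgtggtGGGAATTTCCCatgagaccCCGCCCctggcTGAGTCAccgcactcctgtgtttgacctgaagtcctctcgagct
TNFSF4, chr1:173205533-173205782, minus strand: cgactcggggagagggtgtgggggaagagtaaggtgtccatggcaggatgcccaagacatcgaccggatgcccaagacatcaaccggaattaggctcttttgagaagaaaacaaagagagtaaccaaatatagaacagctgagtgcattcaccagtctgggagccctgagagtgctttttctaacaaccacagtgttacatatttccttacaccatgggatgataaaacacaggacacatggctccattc

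The NF-κB form matched once in TNFRSF8, at −51 to −42 and overlapping the GC box, 6 times in TNFRSF14, 4 of them overlapping at −86 to −74, and as 1 overlapping pair in TNFRSF9 at −74 to −64. TNFRSF9 also held the AP-1 form at −44 to −38 and a GC box at −55 to −50, and TNFSF4 held none of the 3 forms. The NF-κB form occurs in 53.7% of 27305 promoters of this length, the AP-1 form in 6.6% and the GC box in 42.3%. Matched letters describe these windows and do not show binding, and no match says only that the letters are not there. Members that rose, members that were not called and the genome at large all held such matches.

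The genes through which these receptors signal were followed as a list of 17 TRAF adaptors, kinases and NF-κB genes, all tested. Against hnCD16, 9 were called in FR1, 7 higher and 2 lower, and 10 in FR2, 7 higher and 3 lower. The counts against CTRL were also 9 and 10, and the medians of the list were 0.82 and 0.93 against hnCD16 and 0.55 and 0.56 against CTRL. Among all genes 38.3% (18.7% higher, 19.6% lower) were called in FR1 and 39.5% (19.6% higher, 19.8% lower) in FR2 against hnCD16. Against CTRL the shares were 38.0% (18.3% higher, 19.8% lower) in FR1 and 38.2% (18.7% higher, 19.6% lower) in FR2. Between hnCD16 and CTRL edgeR and DESeq2 each called 1 of the 17, beside 0.527% of all genes, and limma on log2(TPM + 1) called 0. There 13, 10 and 11 of the 17 had an unadjusted p under 0.05 by edgeR, DESeq2 and limma. By edgeR 10 passed the adjusted p threshold without reaching the fold threshold. Between FR1 and FR2 edgeR called 0, as did DESeq2 and limma, with 11, 11 and 10 at an unadjusted p under 0.05. Of all genes edgeR called 1.93% there. The shares of 0.527% and 1.93% apply both thresholds. No share of all genes past a p threshold alone is given here, so the counts at p alone cannot be set against a background.

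TRAF1, an adaptor of CD30 and 4-1BB and itself an NF-κB target, had 8 or 9 counts in hnCD16, 21 to 28 in CTRL, 321 to 325 in FR1 and 378 to 427 in FR2. It rose by 5.35 in FR1 and 5.62 in FR2 over hnCD16 (edgeR adjusted p = 2.995e-16 and 9.532e-17), and it fell by 1.43 in hnCD16 against CTRL (edgeR adjusted p = 2.288e-04), which limma did not call. TRAF5, an adaptor of OX40, CD27 and CD30, rose 4.33-fold in FR1 and 4.19-fold in FR2 over hnCD16, from 459 to 499 counts to 1848 to 1978. TRAF2 and TRAF3, which hold the kinase MAP3K14 (NIK) at a low level, were at −0.55 and −0.58 in FR1 and at −0.48 and −0.25 in FR2 against hnCD16, all past the p threshold in edgeR and under the fold threshold. TRAF6, the adaptor shared with Toll-like receptors, was at −0.91 in FR1 and fell by 1.06 in FR2.

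Of the named genes tied to the non-canonical pathway, MAP3K14 rose over hnCD16 by 2.40 in FR1 and 2.78 in FR2. NFKB2 rose by 1.95 and 2.78, RELB by 2.85 and 3.56 and BIRC3, a ubiquitin ligase of the TRAF complex, by 1.16 and 1.90 (edgeR adjusted p between 3.587e-16 and 3.357e-07, MAP3K14 included). Over CTRL MAP3K14 rose by 2.21 in FR1 and 2.59 in FR2 and NFKB2 by 1.51 and 2.335. RELB rose by 1.99 and 2.69 over CTRL and BIRC3 by 1.47 and 2.22. In FR1 against FR2 the values were −0.38 for MAP3K14, −0.83 for NFKB2, −0.70 for RELB and −0.75 for BIRC3 (edgeR adjusted p between 5.593e-06 and 0.00185), without overlap of libraries and under the fold threshold. CHUK and BIRC2, of the same list, stayed under the fold threshold. CHUK, the kinase IKKα, was at 0.15 in FR1 and 0.02 in FR2 against hnCD16 (edgeR adjusted p = 0.00590 and 0.670). BIRC2 was higher by 0.66 and 0.41 (edgeR adjusted p = 2.747e-09 and 1.535e-06), without overlap of libraries. In FR1 against FR2 CHUK was at 0.13 and BIRC2 at 0.25 (edgeR adjusted p = 0.0355 and 0.00136), opposite in sign to the genes above. NFKB2, for example, had 251 to 287 counts in FR1 and 485 to 511 in FR2, beside 64 to 92 in hnCD16 and 99 to 129 in CTRL. NFKB1, RELA and IKBKB, of the same list, were also higher over hnCD16 without overlap of libraries, under the fold threshold. In FR1 and FR2 the values were 0.93 and 0.93 for NFKB1, 0.82 and 0.93 for RELA and 0.45 and 0.53 for IKBKB (edgeR adjusted p no higher than 5.374e-06).

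The other genes called in this list were NFKBIA, TNFAIP3 and SIVA1. They were named here, like CHUK, BIRC2, NFKB1, RELA and IKBKB, after their values were seen. TNFAIP3 encodes A20, an inhibitor of NF-κB signalling that NF-κB itself induces. Its counts were 846 to 904 with CTRL, 686 to 783 with hnCD16, 46 to 51 with FR1 and 63 to 72 with FR2, and the log2 fold change relative to hnCD16 was −3.81 for FR1 and −3.37 for FR2 (edgeR adjusted p = 2.824e-17 and 6.571e-17). SIVA1, which binds the cytoplasmic part of CD27, was at −1.59 and −1.33 (edgeR adjusted p = 1.394e-13 and 1.396e-12). NFKBIA, the inhibitor IκBα and also an NF-κB target, rose by 1.29 and by 1.60 (edgeR adjusted p = 2.558e-11 and 9.407e-13). Of the genes described here as NF-κB targets, TRAF1 and NFKBIA rose and TNFAIP3 fell. The rest of the list, with BIRC3, NFKB2 and RELB that rose, was not sorted by this trait, so this is no tally of targets. Whether NF-κB activity differed was not tested.

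**Figure D4:**
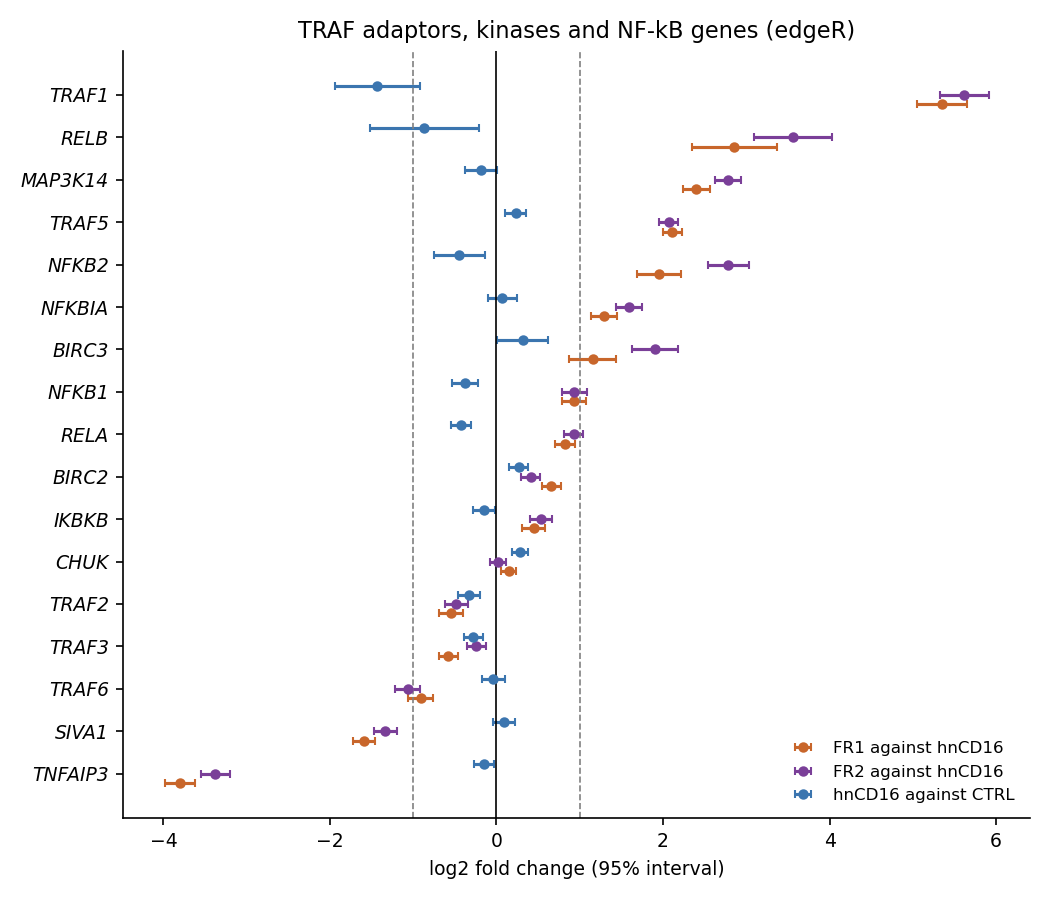
Log2 fold changes with 95% intervals (edgeR) of 17 TRAF adaptors, kinases and NF-κB genes in FR1 and FR2 against hnCD16 and in hnCD16 against CTRL, ordered by FR1, with dashed lines at −1 and 1. TRAF1 lies at 5.35 and 5.62 in FR1 and FR2 and at −1.43 in hnCD16 against CTRL.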

How the data were processed

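RNA-seq of 12 libraries labelled YT (4 groups of 3) was analysed. Per the labels and the paper's methods, the authors filtered reads, mapped them to GRCh38.p13 with HISAT2 2.1.0 and Bowtie2 2.3.4.3 and quantified genes and transcripts with RSEM 1.3.1. The deposited expected counts are RSEM's estimated counts without normalization, in which a read shared by similar sequences is divided between them. The deposited TPM values are the authors' own RSEM output. Whether counting used strand is not given in the sources used here. Library totals were 17714566 to 18729019 counts.

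Expected counts were rounded and tested in R 4.3.3 with edgeR 4.0.16 (TMM, filterByExpr by group, quasi-likelihood test, 1 fit of the 4 groups, no covariates). P-values were adjusted by Benjamini-Hochberg over the 13657 tested genes of each of 6 comparisons. The thresholds were an absolute log2 fold change of 1 and an adjusted p of 0.05, taken from the study, whose test was DESeq2. CPM values use TMM library sizes, with factors from 0.939 to 1.11. Bounds divide the mean of the expressed group by a floor of 3 counts per library in the other group. They do not allow for counting error or spread in the expressed group. Of 66 pairs of libraries 0 were identical, and replicates differed by more than sampling noise (chi-square per gene 2.06 to 12.3). The code was tested on simulated data.

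The members, gene lists and motifs were chosen with earlier results of these data known. All members were named, with the genes that pair with them, 9 named adaptor genes and FCGR3A. The transcript with the largest share in a group was named only for TNFRSF8, TNFRSF4, TNFSF4 and CD70. NM_001330332, NM_001281430, XM_011542441 and NM_001297562 were named after their values were seen. Coordinates are from GENCODE v44 on GRCh38 and promoters from RefSeq, GRCh38.p14. Alternatives were limma 3.58.1 with log2(TPM + 1) or log2(TPM + 0.1), DESeq2 1.42.0, RLE size factors, library size only (added after seeing the data), no filter on low counts, a mean of at least 10 counts, only the groups compared, a replicate block, no fold threshold and leaving out each library. Figures used matplotlib 3.10.9 in Python 3.11.15.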

Additional observations from a re-analysis of the deposited data

How the results depend on the processing

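The number of members called stayed within 1.5 times its value under DESeq2, limma, RLE size factors, library size only, both low-count filters, fits restricted to the compared groups and the replicate block, for each of the 6 comparisons. Without a fold threshold it was 6 in FR1 against CTRL, 5 in FR2 against CTRL, 1 in hnCD16 against CTRL and 1 in FR1 against FR2, by construction of the wider rule. The share of all genes under that rule is not given here, so these counts cannot be set against a background. Without 1 library it ranged from 3 to 4 in FR2 against CTRL, where TNFSF4 was the 4th without FR2 replicate 2, and stayed at its value in the other 5 comparisons. The replicate block gave 4, 4, 3, 3, 0 and 0 members called in the order of FR1 and FR2 against hnCD16, FR1 and FR2 against CTRL, hnCD16 against CTRL and FR1 against FR2. The replicate numbers were not treated as pairs, since same-numbered libraries deviated together with r over 0.1 for all 3 numbers in 0 of 6 comparisons. The largest r were 0.338 and 0.404, for replicates 1 and 3 of hnCD16 against CTRL, beside 0.0196 for replicate 2. Some sharing between same-numbered libraries is thus possible there.

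Signs that turned belonged to differences that no fit called, and the cause was not tested. TNFSF14 in FR1 against hnCD16 was −0.0386 with limma on log2(TPM + 1), −0.0755 on log2(TPM + 0.1), −0.0637 with library size only and −0.20 to 0.23 without 1 library. In FR2 against hnCD16 it was −0.0513, −0.105, −0.0049 and −0.32 to 0.23. In FR1 against FR2 it was −0.0134 with RLE size factors, −0.0130 with DESeq2, −0.0587 with library size only and −0.21 to 0.34 without 1 library. Without 1 library it was −0.33 to 0.10 in FR1 against CTRL and −0.457 to 0.0900 in FR2 against CTRL. TNFRSF9 in FR2 against CTRL was −0.0876 and −0.138 with limma and −0.0677 with library size only. TNFRSF8 in hnCD16 against CTRL was −0.0150 and −0.108 with limma, −0.0142 with library size only and −0.48 to 0.41 without 1 library. TNFSF4 in FR1 against FR2 was −0.0438 to 0.265 without 1 library.

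Scaling by library size only moved the median log2 fold change of all tested genes to −0.22 in FR1 against CTRL, −0.17 in FR2 against CTRL and −0.12 in hnCD16 against CTRL. Depth limits most what the counts near 0 show, and 3 counts correspond to 0.149 to 0.174 CPM.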
